A study of Mus musculus with 9 samples.

Results

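Mucins and the genes of the mucus-secreting cell were followed in 3 populations of cells sorted from mouse tracheal epithelium. The group held 10 genes chosen by name: the secreted gel-forming mucins Muc5b and Muc5ac, the membrane mucins Muc1, Muc4 and Muc16, the trefoil peptide Tff2, the endoplasmic reticulum (ER) protein Agr2 and the transcription factors Spdef, Foxa3 and Creb3l1. They were read by 13 of the 45101 probe sets of the array and made up 10 of the 18193 genes tested. All 10 genes lay above the background level of 3.56 (log2 signal) on all 9 arrays, that level being the 95th percentile of 80 probe sets for olfactory and vomeronasal receptors.

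All cells came from mice hemizygous for a KRT5-GFP transgene, so that GFP reports the transgene rather than a cell type as such. A single cell suspension was sorted for GFP and for the isolectin GSI-A3B, a probe of cell surface sugars. Cells of the GFP+ gate carried GFP and bound the lectin, those of the lectin-only gate bound it without GFP, and those of the columnar gate had neither mark. The series' text calls the first and second of these gates BCs (basal cells) and the last one columnar epithelium, with 3 biological replicates each. The age of the mice and any pooling of animals were not given.

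Airway mucus is built from very long, heavily glycosylated mucins that are folded and linked in the ER, packed into granules and released at the cell surface. Muc5b and Muc5ac form the gel, while membrane mucins such as Muc1, Muc4 and Muc16 stay anchored at the apical surface. In mice, Spdef and Foxa3 promote the mucous cell fate, and Agr2 is needed for mucin production in the intestine.

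Single genes and marker lists checked the gates. Krt5 RNA read 13.44, 13.44 and 13.42 on GFP+ arrays, 12.91, 13.02 and 12.72 on lectin-only arrays and 6.71, 8.27 and 8.88 on columnar arrays. The log2 difference of Krt5 between GFP+ and lectin-only cells was 0.55 (SE 0.45, limma adjusted p = 0.663). Lack of GFP in the lectin-only gate thus did not mark cells without Krt5 RNA. Mean log2 signals over 8 basal markers spanned 11.4 to 11.6 on GFP+ arrays, 10.2 to 10.5 on lectin-only arrays and 6.34 to 7.23 on columnar arrays. For 10 ciliated markers the spans were 5.41 to 6.24 (GFP+), 6.70 to 7.61 (lectin-only) and 8.71 to 9.25 (columnar), and for 10 leukocyte markers 7.15 to 8.42 (GFP+), 10.6 to 11.3 (lectin-only) and 5.98 to 6.78 (columnar). The 8 club cell markers were bright throughout, with means of 12.7 to 13.5 over the 9 arrays. Among them Scgb1a1 read 13.49 to 13.88. Signals this bright may hide differences between gates, which was not tested. Gate means of Trp63 were 13.06 (GFP+), 11.94 (lectin-only) and 7.62 (columnar), and those of Foxj1 were 4.09, 5.44 and 7.30 in the same order. Ptprc, above background on 7 of the 9 arrays, had means of 5.41, 8.95 and 3.25. No basal, club or leukocyte marker was under the background level on all arrays of a gate, whereas the ciliated marker Dnah5 was so in GFP+ cells. The median signal was 5.44 on lectin-only replicate 3 and 4.91 to 5.16 on the other 8 arrays.

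**Figure D1:**
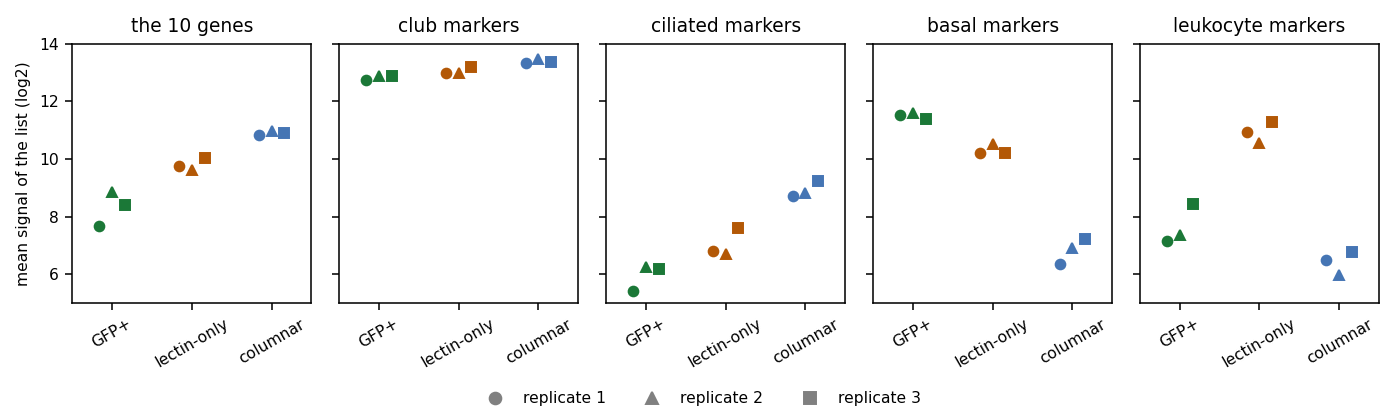
Mean log2 signal (vertical axis) of the 10 mucus genes and of 4 marker lists on each of the 9 arrays, by gate. The 10 genes (7.66 to 8.85 in GFP+, 9.60 to 10.03 in lectin-only and 10.83 to 10.96 in columnar cells) and the ciliated markers step up across the gates, basal markers step down, and leukocyte markers are highest in lectin-only cells.

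Of the 10 genes, 9 fell in GFP+ cells against columnar cells, 6 fell in lectin-only cells against columnar cells, and 6 fell in GFP+ cells against lectin-only cells. None of the 10 was called higher in these 3 comparisons. A call needed an adjusted p from limma below 0.05 together with a log2 difference of 1 or more in size. By that rule 5.33% of all genes were lower and 5.88% higher in GFP+ against columnar cells (11.2% in either direction), 2.38% lower and 6.47% higher in lectin-only against columnar cells (8.85%), and 2.84% lower and 0.896% higher in GFP+ against lectin-only cells (3.74%). The median log2 difference of the 10 genes was -2.68, -1.32 and -1.61 in the 3 comparisons, and that of all genes was -0.04, 0.07 and -0.10. The comparisons share arrays, so their counts are not independent of each other. In sorted populations, fewer mucus cells in a gate and less RNA per cell cannot be told apart. Ciliated markers fell in the same comparisons, with 9, 7 and 3 of 10 called lower, and 1 of 8 club markers was called lower in each. Of 10 leukocyte markers, 4 were higher and 1 lower in GFP+ against columnar cells, 9 were higher in lectin-only against columnar cells and 9 were lower in GFP+ against lectin-only cells. Of 8 basal markers, 8, 8 and 5 were higher in the 3 comparisons. The part of these cell types in the differences of the 10 genes was not tested.

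In each comparison the arrays of 9 of the 10 genes did not overlap and were lower in the gate named first, as held for 17.8% of all genes in GFP+ against columnar cells, 8.61% in lectin-only against columnar cells and 13.3% in GFP+ against lectin-only cells. Means were ordered GFP+ below lectin-only below columnar for 9 of the 10 genes (24.5% of all genes), the exception being Muc4. That order came without overlap at either step for 8 of the 10 (2.36% of all genes), Foxa3 being the other exception. Muc5b, Muc5ac, Tff2 and Creb3l1 were called lower in all 3 comparisons, as were 0.28% of all genes.

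**Figure D2:**
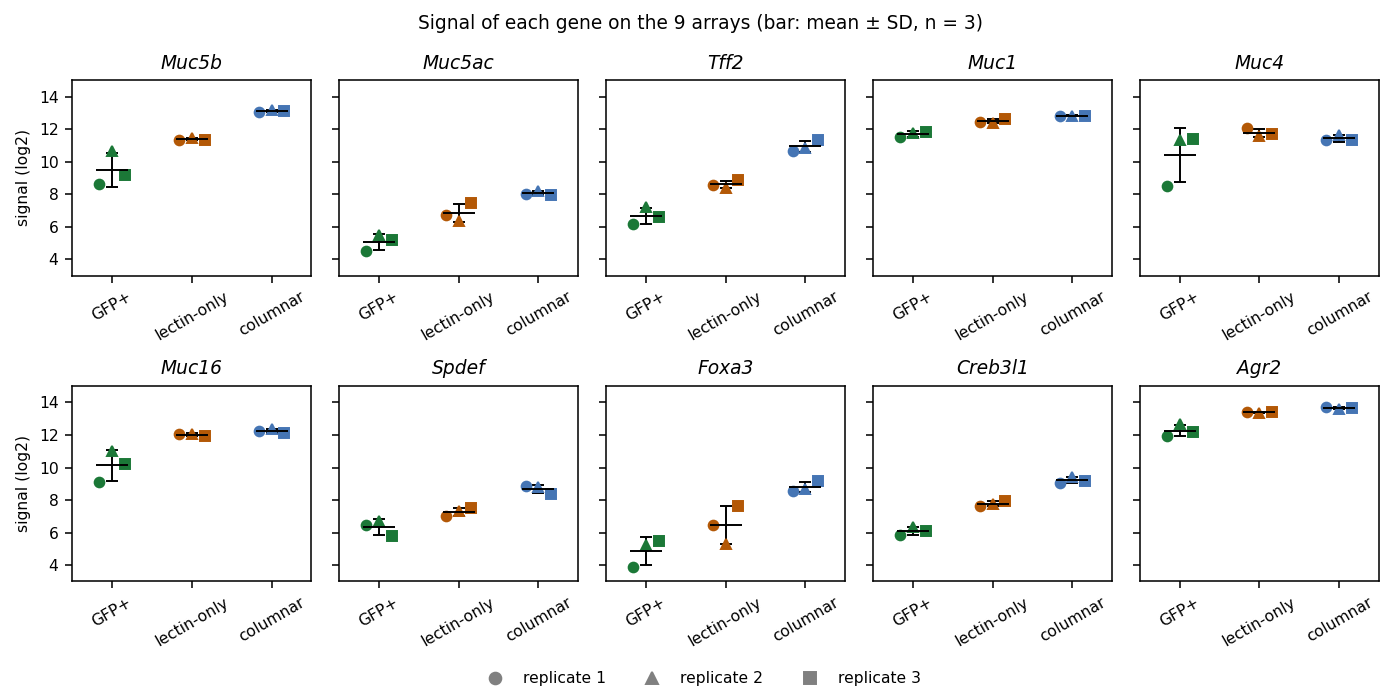
Log2 signal (vertical axis) of each of the 10 genes on the 9 arrays, by gate; points are arrays, with a symbol for each replicate number, and bars are the mean and SD of 3 arrays. GFP+ replicate 1 (circle) is the lowest of the 9 arrays for 9 genes, and the Muc4 panel shows that array apart from the other 8.

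The gel-forming mucins fell at both steps. Muc5b is the main gel-forming mucin of the uninflamed mouse airway. On GFP+ arrays Muc5b read 8.63, 10.65 and 9.20, on lectin-only arrays 11.36, 11.48 and 11.36, and on columnar arrays 13.07, 13.19 and 13.14 (log2 signal). The gates did not overlap, and the GFP+ arrays were the most spread. Muc5b was 12.4-fold lower in GFP+ than in columnar cells (log2 difference -3.64 ± 0.42, SE, limma adjusted p = 0.000356, n = 3 each). It was 3.32-fold lower in lectin-only than in columnar cells (-1.73 ± 0.42, limma adjusted p = 0.0263), a call that did not hold without any lectin-only array or any columnar array, with differences of -1.77 to -1.70 over the 9 arrays left out in turn. The call held with only the lectin-only and columnar gates in the fit. Muc5b had an SD of 1.04 on GFP+ arrays, 0.07 on lectin-only arrays and 0.06 on columnar arrays, while the main fit shares a spread between the gates. Between GFP+ and lectin-only cells Muc5b differed by -1.90 ± 0.42 (limma adjusted p = 0.0352), which did not hold without GFP+ replicate 1 or 3, any lectin-only array or any columnar array (-2.48 to -1.47) or with only these gates in the fit.

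Muc5ac is the gel-forming mucin that is induced in allergic airways. On GFP+ arrays Muc5ac read 4.52, 5.49 and 5.20, on lectin-only arrays 6.70, 6.37 and 7.48, and on columnar arrays 8.03, 8.21 and 7.97 (log2 signal). Its arrays also kept apart by gate. Muc5ac was 7.98-fold lower in GFP+ than in columnar cells (-3.00 ± 0.32, limma adjusted p = 0.000233). The lectin-only against columnar difference was -1.22 ± 0.32 (limma adjusted p = 0.0392), a call absent without GFP+ replicate 3, lectin-only replicate 1 or 2 or any columnar array (-1.53 to -0.98) and with all probe sets fitted. The GFP+ against lectin-only difference was -1.78 ± 0.32 (limma adjusted p = 0.0145), a call absent without GFP+ replicate 1 (-1.50, limma adjusted p = 0.0541).

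Tff2, a trefoil peptide secreted with mucus, had the largest GFP+ against columnar difference of the 10 genes. On GFP+ arrays Tff2 read 6.19, 7.19 and 6.61, on lectin-only arrays 8.55, 8.40 and 8.84, and on columnar arrays 10.67, 10.86 and 11.32 (log2 signal). The gates were apart by more than 1 log2 unit at each step. Tff2 was 19.5-fold lower in GFP+ than in columnar cells (-4.28 ± 0.28, limma adjusted p = 1.80e-05) and 5.10-fold lower in lectin-only than in columnar cells (-2.35 ± 0.28, limma adjusted p = 0.00073). It was 3.82-fold lower in GFP+ than in lectin-only cells (-1.93 ± 0.28, limma adjusted p = 0.00599), and none of the 9 arrays left out in turn removed any of these 3 calls.

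None of the membrane mucins Muc1, Muc4 and Muc16 passed between the lectin-only and columnar gates. Muc1 is a membrane mucin of many glandular epithelia. On GFP+ arrays Muc1 read 11.49, 11.78 and 11.80, on lectin-only arrays 12.45, 12.39 and 12.61, and on columnar arrays 12.79, 12.83 and 12.83 (log2 signal). The gates did not overlap, but the steps were small. Muc1 was 2.19-fold lower in GFP+ than in columnar cells (-1.13 ± 0.16, limma adjusted p = 0.00125). The GFP+ against lectin-only difference of -0.79 ± 0.16 met the adjusted p (0.0249, limma) but not the minimum size of 1, and the lectin-only against columnar difference was -0.33 ± 0.16 (limma adjusted p = 0.272).

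Muc16 is a very large membrane mucin. On GFP+ arrays Muc16 read 9.12, 11.04 and 10.25, on lectin-only arrays 12.04, 12.09 and 11.94, and on columnar arrays 12.27, 12.36 and 12.09 (log2 signal). The lectin-only and columnar arrays lay close together, and all GFP+ arrays were lower and more spread. Muc16 was 4.30-fold lower in GFP+ than in columnar cells (-2.10 ± 0.39, limma adjusted p = 0.00575) and 3.70-fold lower in GFP+ than in lectin-only cells (-1.89 ± 0.39, limma adjusted p = 0.0289). This last call was absent without GFP+ replicate 3 or any lectin-only array (-2.34 to -1.38) and with only the compared gates in the fit. Lectin-only and columnar cells differed by -0.22 ± 0.39 (limma adjusted p = 0.833).

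Muc4, a membrane mucin with EGF-like domains, was called in no comparison. On GFP+ arrays Muc4 read 8.52, 11.35 and 11.41, on lectin-only arrays 12.06, 11.58 and 11.68, and on columnar arrays 11.32, 11.65 and 11.30 (log2 signal). GFP+ replicate 1 stood apart from the other 8 arrays, and the remaining GFP+ arrays lay within the range of the columnar arrays. The log2 differences were -0.997 ± 0.65 in GFP+ against columnar cells (limma adjusted p = 0.41), 0.35 ± 0.65 in lectin-only against columnar cells (limma adjusted p = 0.839) and -1.35 ± 0.65 in GFP+ against lectin-only cells (limma adjusted p = 0.382). Without GFP+ replicate 1 the difference was -0.04 against columnar cells and -0.39 against lectin-only cells. These values come from the brightest Muc4 probe set, whose _x_at suffix marks probes that may bind other transcripts. Another Muc4 probe set was also lowest on GFP+ replicate 1, with 6.67, 10.09 and 9.63 on GFP+ arrays and 10.15, 10.26 and 9.99 on columnar arrays. Its lectin-only arrays read 10.66, 11.16 and 10.65, above all its other arrays. In a fit over all probe sets it differed by -2.03 ± 0.71 in GFP+ against lectin-only cells (limma adjusted p = 0.23). The last Muc4 probe set was under the background level on all 9 arrays.

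Promoter windows of Muc1 and Muc4 are shown as those of the membrane mucins in whose windows a searched letter string was found. They come from RefSeq (GRCm38.p6), run from 250 bases before to 50 bases after the start site, and lie at chr3:89228806-89229105 and chr16:32735636-32735935, both on the plus strand. Capitals mark TATAAA, the core of a TATA box, which began 31 bases before the start in Muc1 and 36 bases before it in Muc4.
Muc1: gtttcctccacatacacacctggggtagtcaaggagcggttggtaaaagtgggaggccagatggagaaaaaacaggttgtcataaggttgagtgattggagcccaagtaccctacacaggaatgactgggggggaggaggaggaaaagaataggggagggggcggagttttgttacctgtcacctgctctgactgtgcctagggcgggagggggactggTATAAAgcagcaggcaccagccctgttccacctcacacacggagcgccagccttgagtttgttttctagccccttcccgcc
Muc4: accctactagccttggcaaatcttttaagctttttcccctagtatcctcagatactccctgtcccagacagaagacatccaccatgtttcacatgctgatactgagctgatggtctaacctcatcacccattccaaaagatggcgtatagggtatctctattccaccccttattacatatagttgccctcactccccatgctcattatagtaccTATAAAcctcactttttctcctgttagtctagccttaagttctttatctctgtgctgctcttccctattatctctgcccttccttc

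The transcription factors of the mucous cell fell in both lectin-binding gates against the columnar gate. Spdef is an ETS factor required for goblet cells in mouse airways. On GFP+ arrays Spdef read 6.48, 6.73 and 5.79, on lectin-only arrays 6.997, 7.33 and 7.50, and on columnar arrays 8.88, 8.80 and 8.40 (log2 signal). No gates overlapped, and the GFP+ and lectin-only arrays were closest. Spdef was 5.13-fold lower in GFP+ than in columnar cells (-2.36 ± 0.27, limma adjusted p = 0.000338) and 2.67-fold lower in lectin-only than in columnar cells (-1.42 ± 0.27, limma adjusted p = 0.00819). The GFP+ against lectin-only difference of -0.94 ± 0.27 did not pass (limma adjusted p = 0.0954).

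Foxa3 is a forkhead factor that drives goblet cell formation when expressed in mouse airways. On GFP+ arrays Foxa3 read 3.89, 5.26 and 5.51, on lectin-only arrays 6.45, 5.27 and 7.61, and on columnar arrays 8.53, 8.70 and 9.16 (log2 signal). The columnar arrays were above the rest, and the GFP+ and lectin-only arrays overlapped. Foxa3 was 15.04-fold lower in GFP+ than in columnar cells (-3.91 ± 0.58, limma adjusted p = 0.00154) and 5.11-fold lower in lectin-only than in columnar cells (-2.35 ± 0.58, limma adjusted p = 0.0287). This last call was absent without lectin-only replicate 1 or 2 or any columnar array (-2.94 to -1.77). The GFP+ against lectin-only difference was -1.56 ± 0.58 (limma adjusted p = 0.212).

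Creb3l1, also called Oasis, is an ER-anchored transcription factor released by cleavage that acts on secretory genes. On GFP+ arrays Creb3l1 read 5.83, 6.36 and 6.11, on lectin-only arrays 7.61, 7.77 and 7.91, and on columnar arrays 9.03, 9.40 and 9.19 (log2 signal). The steps between gates were wider than the spread within any of them. Creb3l1 was 8.60-fold lower in GFP+ than in columnar cells (-3.10 ± 0.19, limma adjusted p = 1.40e-05) and 2.72-fold lower in lectin-only than in columnar cells (-1.44 ± 0.19, limma adjusted p = 0.00136). It was 3.17-fold lower in GFP+ than in lectin-only cells (-1.66 ± 0.19, limma adjusted p = 0.00209), and as with Tff2 none of the 9 arrays left out in turn removed a call.

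Promoter windows of Spdef and Foxa3 are shown as those of the regulators of goblet cell fate. They lie at chr17:27728902-27729201 and chr7:19023490-19023789, both on the minus strand, and are written 5′ to 3′ along the gene (RefSeq, GRCm38.p6). Capitals mark TGACGT, the core of a cyclic AMP response element, which began 201 bases before the start in Spdef, and TATAAA, which began 36 bases before it in Foxa3.
Spdef: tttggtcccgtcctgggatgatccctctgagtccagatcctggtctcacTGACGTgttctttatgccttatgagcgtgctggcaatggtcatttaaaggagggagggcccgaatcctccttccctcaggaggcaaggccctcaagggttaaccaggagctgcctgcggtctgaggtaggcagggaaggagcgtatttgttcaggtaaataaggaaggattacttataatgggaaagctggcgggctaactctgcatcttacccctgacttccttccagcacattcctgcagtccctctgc
Foxa3: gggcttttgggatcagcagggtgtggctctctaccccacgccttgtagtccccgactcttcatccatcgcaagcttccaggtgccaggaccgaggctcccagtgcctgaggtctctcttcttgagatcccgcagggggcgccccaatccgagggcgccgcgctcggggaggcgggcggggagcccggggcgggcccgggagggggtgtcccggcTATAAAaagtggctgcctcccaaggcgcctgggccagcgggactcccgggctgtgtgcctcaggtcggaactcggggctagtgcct

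RefSeq windows were matched for 6 of the 10 genes (Muc1, Muc4, Muc16, Agr2, Spdef and Foxa3), and 4 letter strings were searched on both strands. TATAAA, added after the sequences were seen, stood in 3 of the 6 and in 13.6% of all 32851 windows, and TGACGT stood in 1 of the 6 and in 7.51% of all. TGTTTAC, a forkhead string, and CCGGAT, an ETS string of the kind Spdef binds, stood in none of the 6, against 3.65% and 6.04% of all windows. A match is a run of letters and not a site shown to be bound, and a missing string says only that it is not in these windows.

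Agr2, a protein disulfide isomerase relative that helps mucins fold in the ER, stayed bright in all gates. On GFP+ arrays Agr2 read 11.95, 12.65 and 12.21, on lectin-only arrays 13.42, 13.35 and 13.38, and on columnar arrays 13.72, 13.62 and 13.66 (log2 signal). The lectin-only and columnar arrays lay close together and above all GFP+ arrays. Agr2 was 2.64-fold lower in GFP+ than in columnar cells (-1.40 ± 0.20, limma adjusted p = 0.0011), and its other probe set gave -1.45 ± 0.33 in a fit over all probe sets (limma adjusted p = 0.0199). It was 2.17-fold lower in GFP+ than in lectin-only cells (-1.12 ± 0.20, limma adjusted p = 0.013), a call absent without GFP+ replicate 1 and with arrays centred on their medians (-0.96 each). Lectin-only and columnar cells differed by -0.28 ± 0.20 (limma adjusted p = 0.479).

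**Figure D3:**
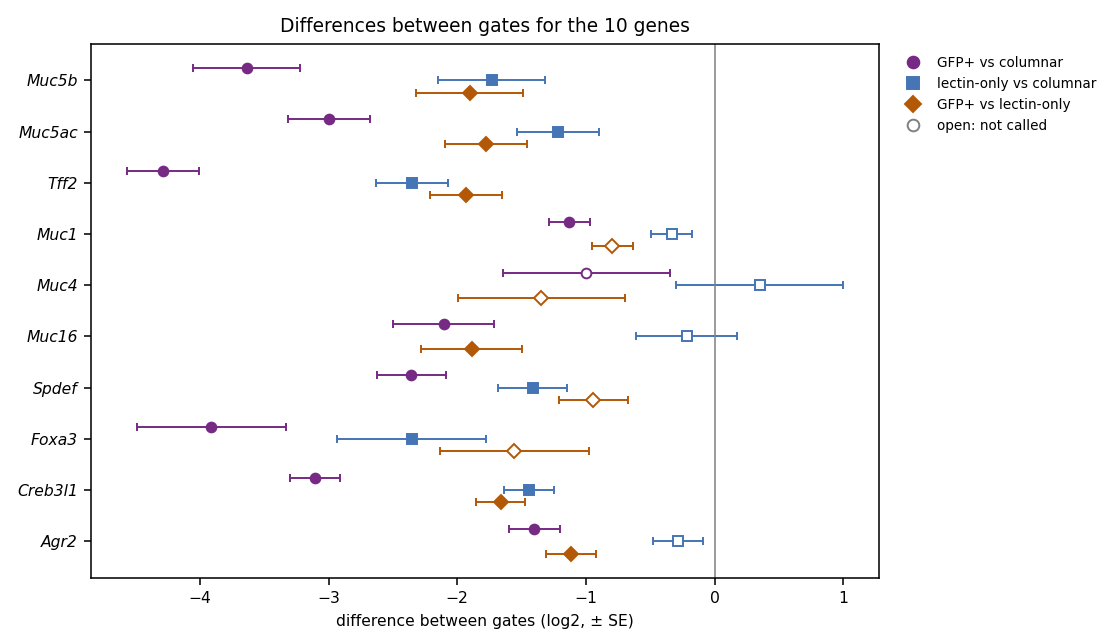
Log2 differences between gates with their SE (horizontal axis) for the 10 genes, with 1 symbol for each comparison, filled where called. In lectin-only against columnar cells, Muc1, Muc4, Muc16 and Agr2 lie between -0.33 and 0.35, and the other 6 genes lie at -1.22 or lower.

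Muc1, Muc4, Muc16 and Agr2, the 4 genes that did not pass between lectin-only and columnar cells, thus comprise all 3 membrane mucins and the ER protein. These 4 also had the highest lectin-only means of the 10 genes (Agr2 13.39, Muc1 12.48, Muc16 12.02 and Muc4 11.77, before Muc5b at 11.40). In columnar cells Muc5b at 13.13 was brighter than all of them but Agr2 (13.67). Whether bright signal reduced their differences was not tested. Whether the step between GFP+ and lectin-only cells differed in size from the step between lectin-only and columnar cells was tested over all genes, after the values had been seen. The first step exceeded the second by 1.67 ± 0.68 for Muc16 (limma adjusted p = 0.299) and by 0.83 ± 0.34 for Agr2 (limma adjusted p = 0.295). By limma 0 of the 10 genes passed, and 2 had an unadjusted p below 0.05, while 4.31% of all genes passed. The test was made gene by gene, so membrane and gel-forming mucins were not compared with each other.

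The GFP+ arrays had the widest range of the 3 gates for 8 of the 10 genes, while Muc5ac and Foxa3 ranged most in lectin-only cells. How often GFP+ arrays ranged most over all genes was not counted. The median range over the arrays of a gate was 0.988 (log2) for the 10 genes in GFP+ cells, 0.371 in lectin-only cells and 0.309 in columnar cells. For genes above background on all arrays it was 0.453, 0.595 and 0.433. GFP+ replicate 1 was the lowest of the 9 arrays for 9 of the 10 genes, all but Spdef, and for 11.3% of all genes. The mean of the ciliated markers was 5.41 on that array, against 6.24 and 6.18 on the other GFP+ arrays, and that of the basal markers was 11.53, against 11.59 and 11.38; their part in the spread was not tested. Without GFP+ replicate 1, 9 of the 10 genes were still called in GFP+ against columnar cells and 3 in GFP+ against lectin-only cells (Tff2, Muc16 and Creb3l1). Over all genes, 373 were called in GFP+ against lectin-only cells without that array, against 680 with all 9 arrays.

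Lists of mucus pathway genes are set beside the shares of all genes called. These were 5.33% lower and 5.88% higher in GFP+ against columnar cells, and 2.38% lower and 6.47% higher in lectin-only against columnar cells. In GFP+ against lectin-only cells 2.84% were lower and 0.896% higher. The lists are short, so a count of 1 or 2 genes is not read as a result about a list. Proteins secreted with mucus, a list of 11 genes, gave 7 that fell and 0 that rose in GFP+ against columnar cells, with a median difference of -2.23. Gp2, a membrane-anchored glycoprotein known from secretory granules, read 3.85, 6.11 and 5.82 on GFP+ arrays and 9.16, 9.47 and 9.95 on columnar arrays. Its difference was -4.26 ± 0.52 (limma adjusted p = 0.000504). Itln1, a secreted lectin, changed by -3.45 ± 0.49 and Fcgbp, a mucus protein that binds immunoglobulin, by -3.35 ± 0.29. In GFP+ against lectin-only cells 5 of the 11 fell (3 without GFP+ replicate 3 or lectin-only replicate 1 or 3, and with only the compared gates, 8 without GFP+ replicate 2), among them Itln1 at -2.49 ± 0.49 (absent without GFP+ replicate 3 or lectin-only replicate 1 or 3, and with only the compared gates) and Clca1, a secreted goblet cell protein, at -2.26 ± 0.38. In lectin-only against columnar cells 3 fell (1 without lectin-only replicate 1 or columnar replicate 2 or 3), namely Gp2, Fcgbp and Bpifb1, and 1 rose.

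The gene that rose was Tff1, a trefoil peptide like Tff2. On GFP+ arrays Tff1 read 5.20, 6.35 and 6.24, on lectin-only arrays 7.95, 8.16 and 8.75, and on columnar arrays 4.64, 5.27 and 5.52 (log2 signal). The lectin-only arrays were above all others. Tff1 differed by 3.15 ± 0.36 in lectin-only against columnar cells (limma adjusted p = 0.000578) and by -2.35 ± 0.36 in GFP+ against lectin-only cells (limma adjusted p = 0.00751).

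Of 11 other mucins listed, 7 were measured, and 3 of them rose in lectin-only against columnar cells (1 without lectin-only replicate 3) while 0 fell. All 3 that rose are membrane mucins. Muc15 read 3.10, 7.11 and 7.10 on GFP+ arrays and 7.88, 8.09 and 6.28 on lectin-only arrays and was under the background level on all columnar arrays, so that it was at least 14.5-fold higher in lectin-only than in columnar cells (limma adjusted p = 0.0107). Muc13 differed by 3.04 ± 0.82 (limma adjusted p = 0.0447), a call absent without GFP+ replicate 2, any lectin-only array or columnar replicate 1 or 2, and with all probe sets fitted. Muc3 was at least 1.58-fold higher (limma adjusted p = 0.0181), a call absent without lectin-only replicate 3 or columnar replicate 2 or 3, and with arrays centred or quantile normalization. Of the 10 leukocyte markers, 9 were also called higher in lectin-only than in columnar cells, and their part in these differences was not tested. In GFP+ against columnar cells 1 mucin fell, Muc20, at -2.34 ± 0.66 (limma adjusted p = 0.044), a call absent without any lectin-only array or any columnar array, and with only the compared gates or all probe sets fitted. The number of these mucins that rose there was 0 (1 without GFP+ replicate 1 or columnar replicate 2, and with the replicate block, 2 with the median of probe sets, dim genes left out or a trended robust prior). In GFP+ against lectin-only cells limma called none of the 7 (3 at an unadjusted p below 0.05, and 1 called with the replicate block), with Muc13 at -1.90 ± 0.82 and Muc20 at -1.67 ± 0.66.

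Of 21 measured enzymes of mucin O-glycosylation, 3 fell and 1 rose (2 without GFP+ replicate 1) in GFP+ against columnar cells, with a median of -0.59. Fut2, which adds fucose to mucin glycans, differed by -3.36 ± 0.31 (limma adjusted p = 0.000119). Galnt6, which starts O-glycans, differed by -2.06 ± 0.49, a call absent without GFP+ replicate 1 or 3 or columnar replicate 2 or 3, and with the median of probe sets (-0.37). The sialyltransferase St6galnac2 was the one that rose, at 2.22 ± 0.36. In lectin-only against columnar cells Fut2 fell at -1.72 ± 0.31 (not called at -0.91 with the median of its probe sets), and 1 rose (2 without GFP+ replicate 1 or 2, and with dim genes left out, a trended robust prior, the replicate block or only the compared gates), St6galnac2, at 2.22 ± 0.36. In GFP+ against lectin-only cells 3 fell (0 without GFP+ replicate 1 or 3 or lectin-only replicate 1 or 3, 1 without lectin-only replicate 2), Fut2, St3gal4 and Galnt5. Of these, Fut2 was not called with the median of its probe sets (-0.99). The Galnt5 call was absent without any GFP+ array, any lectin-only array or any columnar array. It was also absent with either other scaling, only the compared gates or all probe sets fitted.

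Of 15 measured transcription factors of secretory cells other than the members, 3 fell and 1 rose in GFP+ against columnar cells, with a median of -0.21. Foxa2, a forkhead factor that restrains goblet cell formation in mice, differed by -3.24 ± 0.29 (limma adjusted p = 0.000103), the ETS factor Elf5 by -1.82 ± 0.35 (not called at -1.16 with the median of its probe sets) and Creb3l4, a relative of Creb3l1, by -1.44 ± 0.29. Klf4 was the one that rose, at 1.05 ± 0.16, but no factor of the list was called higher with arrays centred or with the median of probe sets. In lectin-only against columnar cells 1 fell (2 without lectin-only replicate 3 or columnar replicate 2, and with arrays centred or quantile normalization), Foxa2, at -2.18 ± 0.29, and in GFP+ against lectin-only cells Elf5 was the single call, at -1.62 ± 0.35, absent without GFP+ replicate 1 or 2 or lectin-only replicate 1 or 3, and with only the compared gates.

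Of 15 genes of mucin folding in the ER, 2 fell and 0 rose in GFP+ against columnar cells, where 11.2% of all genes were called in either direction. On GFP+ arrays Agr3 read 4.34, 5.08 and 5.46, on lectin-only arrays 6.89, 6.14 and 6.79, and on columnar arrays 8.83, 8.61 and 9.39 (log2 signal). Agr3, the relative of Agr2, differed by -3.98 ± 0.33 in GFP+ and by -2.34 ± 0.33 in lectin-only cells against columnar cells, where it was the single call. Ern2, an ER stress sensor of mucous epithelia, differed by -1.71 ± 0.26 in GFP+ against columnar cells. In GFP+ against lectin-only cells Agr3 was again the single call (0 without GFP+ replicate 1 or 2 or lectin-only replicate 1 or 3, 2 with the median of probe sets, dim genes left out or a trended robust prior), at -1.65 ± 0.33, absent without GFP+ replicate 1 or 2 or lectin-only replicate 1 or 3.

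Of 16 measured genes of granule exocytosis, 1 was called in GFP+ against columnar cells, as were 11.2% of all genes. It was Marcks, a regulator of mucin granule release, at 1.20 ± 0.32. That call was absent without any GFP+ array, lectin-only replicate 1 or columnar replicate 1 or 2, and with only the compared gates. The number that fell was 0 (1 without columnar replicate 3). In lectin-only against columnar cells limma called none (3 at an unadjusted p below 0.05), with Syt2, a calcium sensor of granule release (under the background level on 2 of 3 columnar arrays), at 1.05 ± 0.45 and Marcks at 0.95 ± 0.32; the number called higher was 0 (1 without columnar replicate 3, and with the median of probe sets or the replicate block). Sytl2 was the single call in GFP+ against lectin-only cells, at -1.13 ± 0.26, absent without any GFP+ array, any lectin-only array or columnar replicate 2, and with arrays centred, only the compared gates or all probe sets fitted.

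Of 14 measured genes linked to interleukin 13, a cytokine that induces mucous cells, 2 fell and 2 rose in GFP+ against columnar cells. The list holds receptors and cytokines, such as Egfr and Il33, so its counts do not measure a response to interleukin 13. The number that rose was 1 without GFP+ replicate 2 or 3, any lectin-only array or any columnar array, and 5 without GFP+ replicate 1. It was also 1 with quantile normalization, only the compared gates or all probe sets fitted. The lipoxygenase Alox15 differed by -3.86 ± 0.38, the transporter Slc5a8 by -1.96 ± 0.30, Egfr, the epidermal growth factor receptor, by 2.00 ± 0.24 and the serpin Serpinb2 by 2.35 ± 0.67 (limma adjusted p = 0.0461). Serpinb2 was the call lost wherever only 1 rose, and it read 7.75 on GFP+ replicate 1 against 7.76 on columnar replicate 2. In lectin-only against columnar cells 5 rose and 1 fell, with the cytokine Il33 at 5.10 ± 1.04, Serpinb2 at 3.73 ± 0.67, the anion exchanger Slc26a4 higher (under the background level on 2 of 3 columnar arrays, so no size is given) and Alox15 at -2.12 ± 0.38. Leukocyte markers were higher in the same comparison, and their part was not tested. In GFP+ against lectin-only cells Alox15 was the single call, at -1.74 ± 0.38, absent without GFP+ replicate 3, any lectin-only array or any columnar array, and with only the compared gates (2 called without GFP+ replicate 2 and with a trended robust prior).

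**Figure D4:**
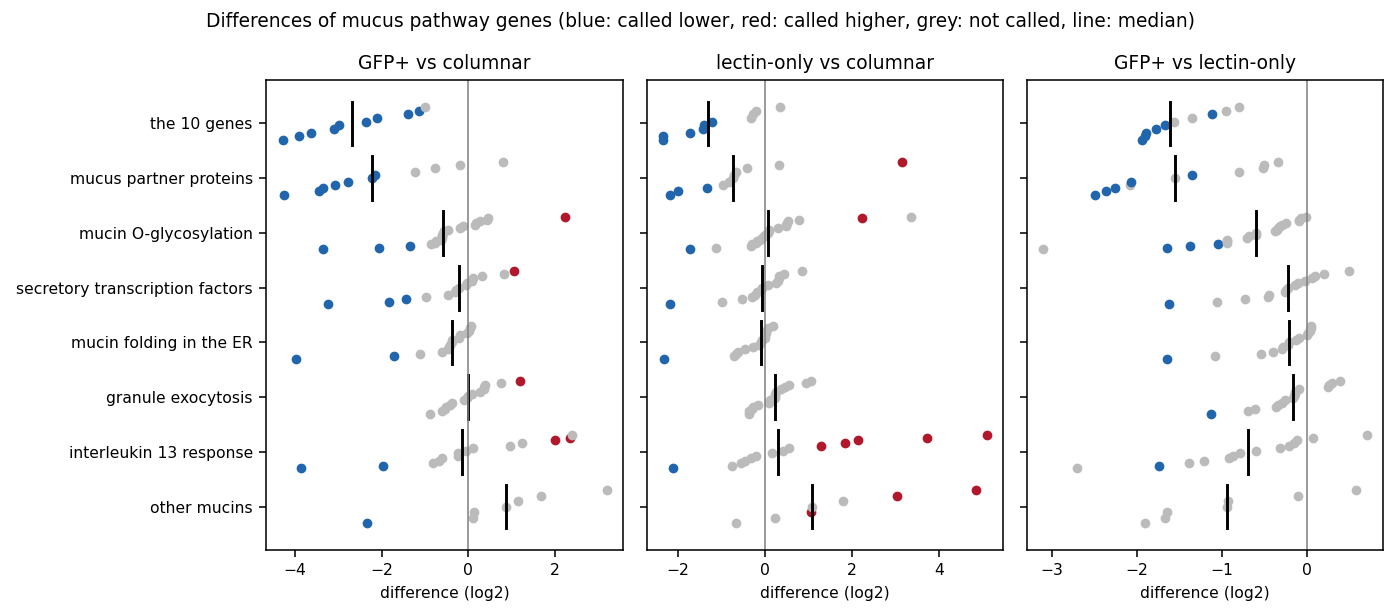
Log2 differences (horizontal axis) of the 10 genes and of 7 lists of mucus pathway genes in the 3 comparisons. Points are genes, blue where called lower, red where called higher and grey where not called, and black lines are medians. The medians of the 10 genes (-2.68) and of the mucus partner proteins (-2.23) lie left of 0 in GFP+ against columnar cells. That of other mucins lies right of 0 in GFP+ (0.87) and in lectin-only cells (1.08) against columnar cells. Of the 7 other mucins measured, 4 were under the background level on all columnar arrays.

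Genes whose pattern was most like that of Muc5b or Muc4 were ranked by the root mean square difference (log2) over the 9 arrays, each gene being centred on its own mean, among 3375 genes above background on at least 3 arrays whose gate means spanned at least 1. The nearest to Muc5b were Cfb (0.23), Alox15 (0.27), Slc27a2 (0.28), Ppp1r1b (0.34) and Kndc1 (0.37). Among the 10 genes, Tff2 (rank 17) and Creb3l1 (rank 18) were nearest to it, each at a difference of 0.44, before Muc5ac (rank 31, 0.50). The nearest to Muc4 were Plet1 (0.33), Klk11 (0.37), Gjb2 (0.37), Epha4 (0.38) and Slc28a3 (0.39), all lowest on GFP+ replicate 1, and Muc16 was the nearest of the 10 genes (rank 71, 0.63). These distances describe 9 arrays and carry no test.

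**Figure D5:**
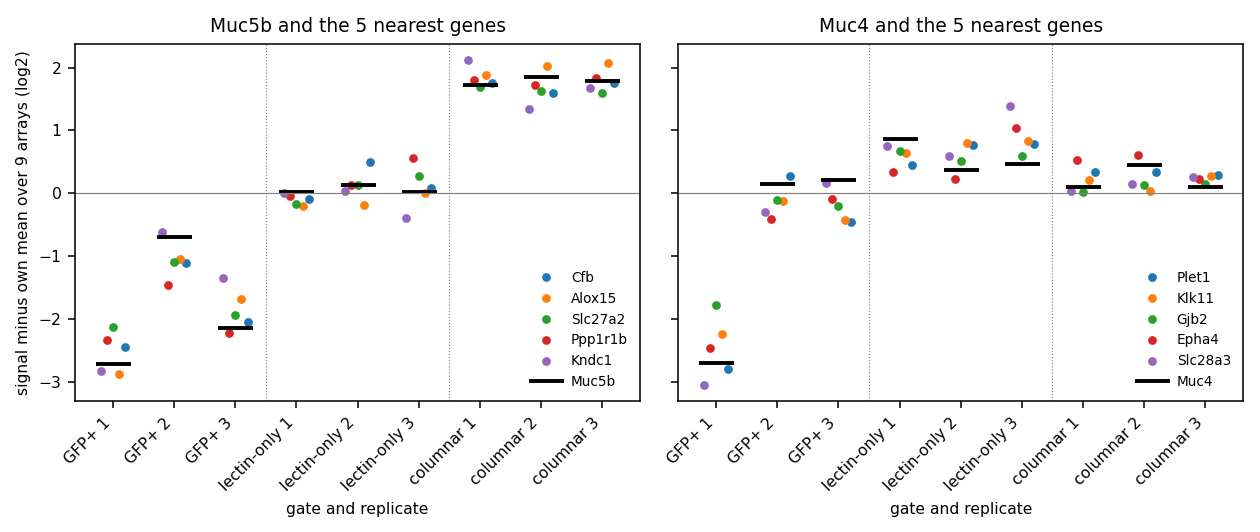
Log2 signal minus the gene's own mean (vertical axis) on the 9 arrays for Muc5b with its 5 nearest genes and for Muc4 with its 5 nearest genes. Muc5b and its neighbours step up across the gates, and the Muc4 group is lowest on GFP+ replicate 1.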

How the data were processed

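RNA of 9 sorted samples was labelled with biotin (NuGEN) and hybridised to Affymetrix mouse arrays, per the labels' protocols. The deposited values are log2 probe set signals that the authors made with RMA, per the submitters' processing notes, which name no software version. Medians differ between arrays, so other scalings were tried. In 36.3% of probe sets, Muc5b among them, at least 2 arrays hold one value.

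Of 45101 probe sets, 34945 had 1 gene symbol in the platform annotation (updated through RefSeq), 932 had several, 9160 had none and 64 were controls. For each gene the probe set with the highest mean over 9 arrays was used. Gate means of 18193 genes were fitted with limma 3.58.1 (R 4.3.3) on all 9 arrays, with Benjamini-Hochberg adjustment for each comparison. Errors of differences are limma SEs, with a median of 0.24, and the number of arrays limits the precision. Where a gene was under background on all arrays of a gate, the fold is a bound, taken against the higher of the background level and its own signal. The fit was tested on simulated data.

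The text names the 10 genes, up to 3 called genes of largest difference (2 where none was called) for each list and comparison, genes that check the gates, and the 5 genes nearest to Muc5b and to Muc4. Klf4, Bpifb1 and Slc5a8, named to complete a count, and the marker Dnah5 lie outside that rule and were chosen after their values were seen. The members and lists were chosen with earlier results of these data known. The series' design text says biological replicates without naming animals, so p-values measure the spread between these samples.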

Additional observations from a re-analysis of the deposited data

How the results depend on the processing

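The alternatives were 2 other scalings, the median of a gene's probe sets, all probe sets fitted singly, a filter on dim genes, a trended robust prior, a replicate block, only the compared gates in the fit, and each array left out. Of 510 differences of the 10 genes under these, 475 kept direction and side of the threshold, 35 kept direction and lost the call, and 0 reversed. The count called in GFP+ against columnar cells was 9 under all of them. With an array left out it was 3 to 6 in lectin-only against columnar cells (3 without lectin-only replicate 1 or 2 or any columnar array) and 3 to 6 in GFP+ against lectin-only cells (3 without GFP+ replicate 1), where it was 4 with only the compared gates; Muc5b (adjusted p = 0.0842) and Muc16 (adjusted p = 0.071) were then not called, with fewer samples in the fit. With all probe sets fitted, Muc5ac in lectin-only against columnar cells had an adjusted p of 0.0504, with more features tested. Over all genes, 373 to 633 were called in GFP+ against lectin-only cells with an array left out (680 with all, 373 without GFP+ replicate 1); the cause was not tested. Centring arrays moved the median difference of all genes in lectin-only against columnar cells to -0.17 (0.07 as deposited) and in GFP+ against lectin-only cells to 0.06 (-0.10 as deposited), and split all calls into 968 higher and 714 lower in lectin-only against columnar cells (1177 and 433 as deposited) and 259 higher and 455 lower in GFP+ against lectin-only cells (163 and 517 as deposited). Quantile normalization gave 1036 and 587 in lectin-only against columnar cells and 230 and 456 in GFP+ against lectin-only cells. The uncalled difference of Scgb1a1 changed sign in GFP+ against lectin-only cells with arrays centred (0.108) and with an array left out (-0.0964 to 0.0219), and in lectin-only against columnar cells with an array left out (-0.0935 to 0.015). Whether same-numbered samples were paired was not settled. Deviations of the 9 same-numbered pairs correlated at -0.06 to 0.37, with 5 over 0.1, and those of differently numbered pairs at -0.50 to 0.20. With the replicate block, 9, 6 and 6 of the 10 genes were called in GFP+ against columnar, lectin-only against columnar and GFP+ against lectin-only cells, and 2193, 1785 and 906 of all genes.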

Other observations

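Of 8 fibroblast markers, 3 fell and 2 rose in GFP+ against columnar cells, 0 fell and 2 rose in lectin-only against columnar cells, and 3 fell and 1 rose in GFP+ against lectin-only cells. The shares of all genes called are those given with the lists of mucus pathway genes. Of 8 measured submucosal gland markers, 2 fell in GFP+ and 2 fell in lectin-only cells against columnar cells and none rose, and limma called none in GFP+ against lectin-only cells (1 at an unadjusted p below 0.05).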
